A study of Mus musculus with 18 samples.

Results

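The killer cell lectin-like receptors are membrane proteins by which natural killer cells and activated T cells read the surface of other cells. Transcripts of 8 of them were followed here, 6 that effector CD8 T cells make (Klrg1, Klrk1, Klrc1, Klrc2, Klrd1 and Klre1) and 2 best known from natural killer cells (Klrb1c and Klra7). They were chosen by name, not by their values, from 49671 gene models. All 8 passed the filter on low counts, as did 24 of the 30 models of the Klr families and 14080 models in all.

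Sequencing counts came from T cells, CD8+ or CD4+, of B16f10-OVA melanomas (a mouse line that carries ovalbumin) grown for 12 days in B6 mice. There were 6 groups of 3 libraries, 3 groups for each sorted cell type. All mice carried a floxed miR-155 gene. Treated deficient mice also carried CD4cre (Cre driven by the CD4 promoter, which is active in developing T cells of both lineages) and were given antibodies against CTLA-4 and PD-1/PD-L1 on days 3, 6 and 9, which block receptors that restrain T cells. Deficient mice carried CD4cre with no antibody, and floxed mice had neither. Each library pooled tumors of 2 to 3 mice. The antibodies were thus studied in deficient mice alone, and an effect of Cre itself cannot be told apart from that of the deletion. Because the sorted cells were measured in bulk, fewer cells of a type and less RNA per cell cannot be told apart.

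Some background helps in reading the values. Klrd1 encodes CD94, which reaches the surface paired with an NKG2 chain. With NKG2A (Klrc1) it forms an inhibitory receptor for Qa-1 (H2-T23), the mouse counterpart of HLA-E, and with NKG2C (Klrc2) an activating one. Klrk1 encodes NKG2D, an activating receptor for stress-induced ligands that signals through DAP10 (Hcst) or DAP12 (Tyrobp). KLRG1 is an inhibitory receptor for cadherins and a marker of terminal effector CD8 cells, and some regulatory CD4 T cells carry it too. Klre1 pairs with Klri1 or Klri2. Klrb1c encodes NK1.1, used to identify natural killer cells in B6 mice, and Klra7 encodes Ly49G, an inhibitory receptor for class I MHC of the Ly49 family.

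Per the deposited annotation (GRCm38), all 8 genes lie on chromosome 6. Klrg1 (ENSMUSG00000030114) stands apart at chr6:122270596-122282882, minus strand. The others lie within the natural killer gene complex. Klrb1c (ENSMUSG00000030325) is at chr6:128778485-128789215, minus strand. Klre1 (ENSMUSG00000050241) at chr6:129577905-129585827 and Klrd1 (ENSMUSG00000030165) at chr6:129591782-129598775 are on the plus strand. Klrk1 (ENSMUSG00000030149) at chr6:129610323-129623864, Klrc2 (ENSMUSG00000052736) at chr6:129647496-129660689 and Klrc1 (ENSMUSG00000030167) at chr6:129666015-129678973 follow on the minus strand. Klra7 (ENSMUSG00000067599), at chr6:130218605-130233322 on the minus strand, lies in the Ly49 cluster.

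The deleted microRNA is shown because its seed decides which transcripts it can pair with. The mature miR-155-5p (RefSeq, GRCm38.p6, chr16:84714143-84714165, plus strand) is printed 5′ to 3′ with the seed, bases 2 to 8, in capitals. Below it is the only match to that seed (AGCATTA, in capitals) in the annotated 3′ UTRs (GENCODE M21) of 26 Klr genes, which lies in Klri2.
mmu-miR-155-5p: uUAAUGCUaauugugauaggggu
Klri2 site: aaaggttcccAGCATTAggtagatgga
None of the 8 receptor genes carried this match, against 9.535% of the 21186 genes with an annotated 3′ UTR. Absence of the match says only that these letters are not in the annotated UTRs.

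Promoters are shown for 3 receptors that were called with the antibodies in CD8 cells (adjusted p under 0.05), Klrc1 and Klrk1 higher and Klra7 lower (250 bases before to 50 after the start; RefSeq, GRCm38.p6; 5′ to 3′ on the gene's strand). Capitals mark any match, on either strand, to the RUNX core TGTGGT, the AP-1 site TGANTCA, the T-box motif GGTGTGA or the TCF/LEF site CTTTGAT. The windows are chr6:129678924-129679223 for Klrc1, chr6:129623815-129624114 for Klrk1 and chr6:130233273-130233572 for 1 of the 2 starts of Klra7, all minus strand.
Klrc1: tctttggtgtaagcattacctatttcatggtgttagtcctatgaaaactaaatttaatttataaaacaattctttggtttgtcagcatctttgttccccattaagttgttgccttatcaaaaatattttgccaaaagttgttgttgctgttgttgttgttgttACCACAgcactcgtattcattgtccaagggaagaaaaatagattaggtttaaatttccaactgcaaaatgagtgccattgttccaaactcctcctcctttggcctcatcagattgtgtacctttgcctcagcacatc
Klrk1: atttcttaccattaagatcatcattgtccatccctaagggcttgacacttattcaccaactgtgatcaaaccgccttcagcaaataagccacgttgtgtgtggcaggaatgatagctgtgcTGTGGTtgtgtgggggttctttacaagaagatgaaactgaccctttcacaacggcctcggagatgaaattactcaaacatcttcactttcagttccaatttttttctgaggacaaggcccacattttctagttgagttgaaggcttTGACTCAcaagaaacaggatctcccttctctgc
Klra7: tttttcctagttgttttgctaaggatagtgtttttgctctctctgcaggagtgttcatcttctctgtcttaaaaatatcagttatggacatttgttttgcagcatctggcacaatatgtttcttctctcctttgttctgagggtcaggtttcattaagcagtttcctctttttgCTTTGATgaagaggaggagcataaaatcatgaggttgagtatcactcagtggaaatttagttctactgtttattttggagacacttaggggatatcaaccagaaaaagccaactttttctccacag
The RUNX core stood in the windows of Klrc1 and Klrk1, and in 16.761% of all 32851 promoter windows. It also stood in windows, not printed, of Klrb1c and Klrc2, which were not called with the antibodies in CD8 cells. A window of Klre1, which was called higher, held it too. The Klrk1 window also held an AP-1 match (7.808% of all windows), as did those of Klrc2, and the printed Klra7 window held a TCF/LEF match (3.729%). The window at the other Klra7 start (chr6:130231638-130231937, minus strand, not printed) held no match to any of these motifs. None of the 3 held the T-box motif (3.979%). These matches are letters only and were not tested as binding sites.

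The libraries held 3.20 to 11.65 M (mega) counts. Mir155hg, the host transcript of miR-155, was at 0.345, 0.414 and 0.524 CPM (counts per M counts, TMM-scaled) in treated deficient CD8 libraries, at 0.236, 0.894 and 1.90 in deficient ones, and at 20.5, 19.2 and 9.08 in floxed ones. In CD4 cells it was at 0.0873, 0 and 0.191 CPM in treated deficient, 0.649, 0 and 0.566 in deficient and 4.88, 8.24 and 6.72 in floxed libraries. The labels and this transcript thus go together in every library. Library values are given throughout in the order of the replicate numbers. Treated CD8 replicate 2 stood apart in composition, with the fewest counts and a TMM factor of 0.756 (0.902 to 1.11 in the others). Floxed CD4 replicates 2 and 3 held 149.7 and 141.8 CPM of Cd8a, against 14.6 CPM in replicate 1 and at most 17.5 CPM in the other CD4 groups. Melanoma transcripts (8 genes summed) reached 349 to 1650 CPM in treated, 1335 to 3023 in deficient and 151 to 190 in floxed CD8 libraries. Macrophage and monocyte transcripts (13 genes) summed to 451 to 687, 1392 to 2753 and 586 to 1943 CPM in the same order. In CD4 cells the macrophage sum was 2618 to 4195 CPM in treated, 2871 to 4305 in deficient and 11270 to 23800 in floxed libraries, and the melanoma sum 434 to 1925, 1789 to 4202 and 156.5 to 632 CPM. The part of these in the receptor values was not tested.

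Set against exon length, CD94 was the most abundant of the 8 receptors in every CD8 group. This order turns on the length, 7183 bases for Klrk1 against 1281 for Klrd1. In CPM not set against length, Klrk1 lay above Klrd1 in every treated deficient and every floxed CD8 library. Klrd1 averaged 496.5 ± 59.2 CPM per kb in treated deficient CD8 cells, 290.9 ± 32.1 in deficient and 297.5 ± 76.3 in floxed cells (SD, n = 3). Klrc1 came next with 295.4 ± 55.3, 79.99 ± 4.99 and 188.4 ± 49.9 CPM per kb in the same groups. Both chains of the inhibitory CD94/NKG2A receptor thus led the order by length in CD8 cells. In floxed CD8 cells Klrk1 (75.6), Klre1 (23.5), Klra7 (9.65), Klrc2 (4.86), Klrg1 (4.36) and Klrb1c (1.15 CPM per kb) followed. Of the neighbours in this floxed order, Klra7 with Klrc2 and Klrc2 with Klrg1 had overlapping library ranges. In deficient CD8 cells Klra7 stood at 73.4 ± 1.8 CPM per kb, above Klrk1 (49.2 ± 3.7), and its libraries overlapped those of Klrc1. The order in CD4 cells was another. Klrg1 led it, with 121.6 ± 27.8 CPM per kb in treated deficient, 143.7 ± 10.3 in deficient and 97.1 ± 28.3 in floxed cells. Klrd1 came next in CD4 cells, with 58.9 ± 29.1, 53.2 ± 10.8 and 65.0 ± 24.9 CPM per kb. The library ranges of Klrg1 and Klrd1 overlapped in floxed CD4 cells, and those of Klrd1 and Klrc1 in treated deficient and floxed ones.

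**Figure D1:**
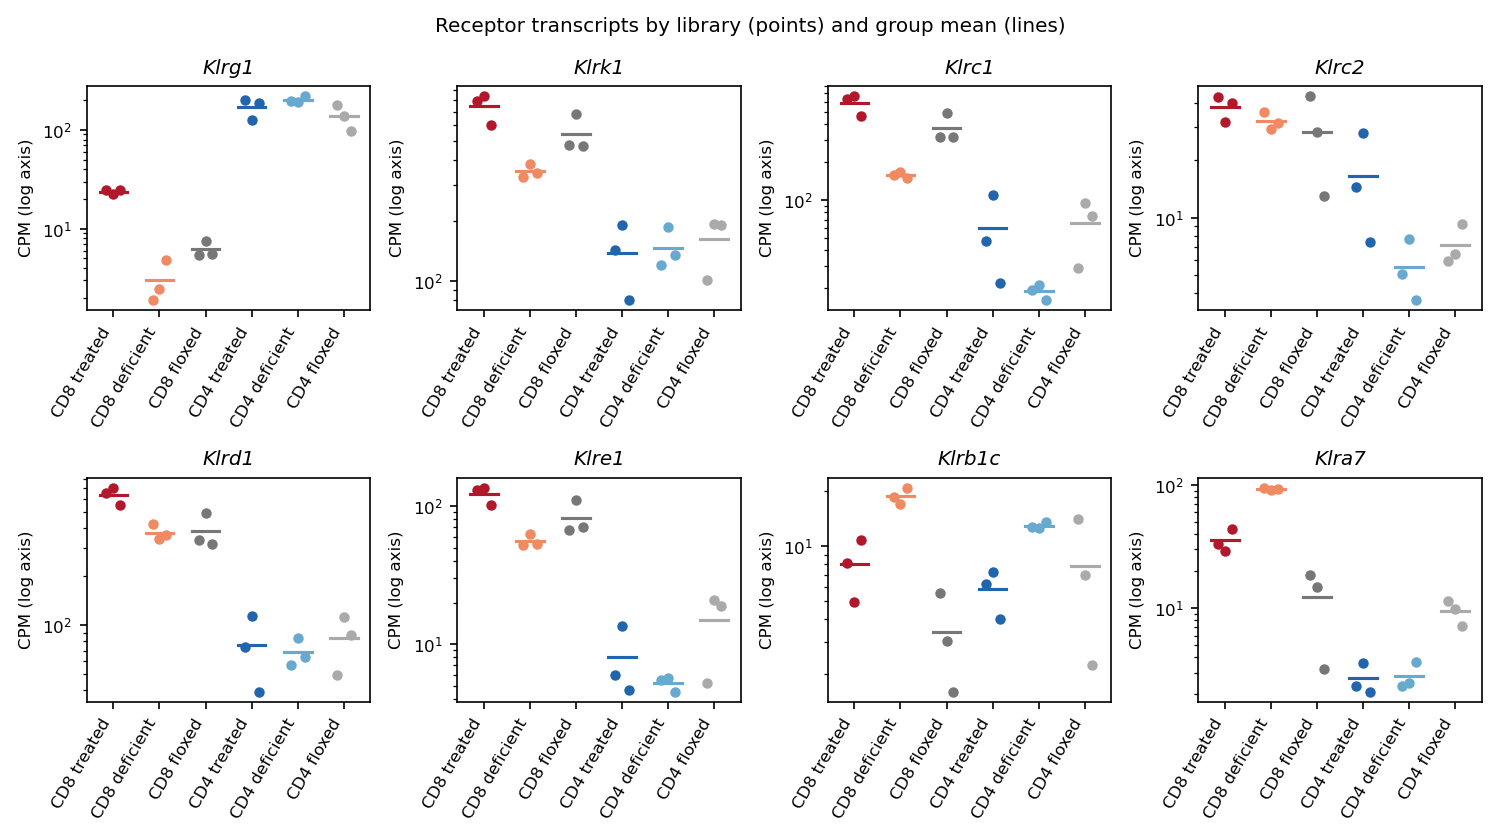
Each panel plots 1 receptor gene in CPM (TMM-scaled, log axis) for 6 groups, with a point per library and a line at the group mean. Klrg1 lies higher in all 9 CD4 libraries than in any CD8 library, and Klra7 is highest in the 3 deficient CD8 libraries, at 90.5 to 95.0 CPM.

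Deficient CD8 cells held more transcript of both natural killer receptors and less of Klrg1 than floxed ones. Of the 8 genes, 3 passed the test (adjusted p under 0.05, edgeR's quasi-likelihood test over all genes; "called" below), where 19.3% of all tested genes did. Klrb1c and Klra7 rose, and Klrg1 fell. The 6 effector receptors had a median log2 fold change of -0.59, against -0.01 over all genes, and 1 of the 6 was called. Between deficient and floxed libraries 2 of the 8 were separate and higher and 4 separate and lower, where 17.8% and 16.4% of all genes were. With the antibodies, 5 of the 8 were called (13.8% of all genes): Klrg1, Klrk1, Klrc1 and Klre1 rose and Klra7 fell. The median over the 6 effector receptors was then 1.10, against -0.03 over all genes. Here 5 were separate and higher and 2 separate and lower, against 22% and 22.1% of all genes. Both comparisons share the untreated deficient libraries, so opposite signs in the 2 are not independent of each other. The log2 fold changes in the text are deficient over floxed ("deletion") and treated deficient over deficient ("blockade"), with the standard error of the fit.

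**Figure D2:**
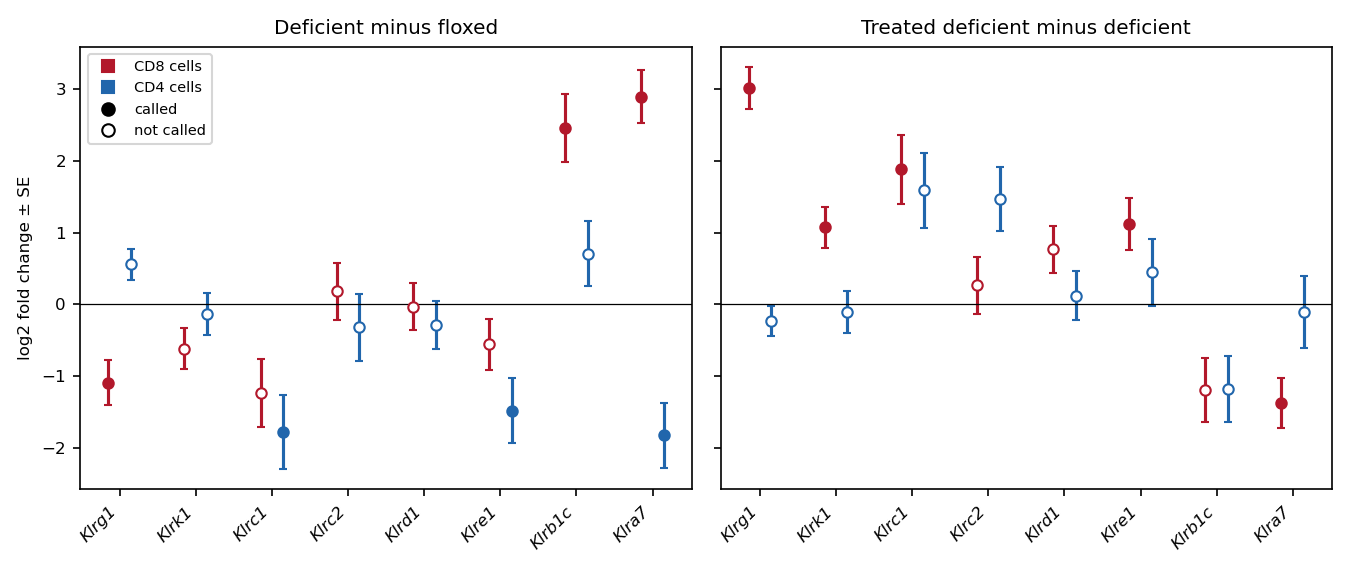
Log2 fold changes with their standard errors are plotted for the 8 receptors in CD8 (red) and CD4 (blue) cells, deficient minus floxed on the left and treated deficient minus deficient on the right. Filled points passed an adjusted p of 0.05; Klra7 rose by 2.90 in deficient CD8 cells and fell by 1.83 in deficient CD4 cells.

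CD94 was not called in either contrast in CD8 cells. Klrd1, which encodes it, had 418, 339 and 360 CPM in deficient CD8 libraries, against 335, 493 and 315 CPM in floxed ones, and the groups overlapped. The change was -0.03 ± 0.33 (adjusted p = 0.964), and its sign depended on the scaling and on single libraries. In treated deficient CD8 libraries it was at 650.5, 704 and 554 CPM, above every deficient library. That difference, 0.77 ± 0.33, did not pass (adjusted p = 0.142). It passed when the 2 groups were fitted alone (adjusted p = 0.000223) and with no filter on low counts. Over all genes these fits called 3985 of 12553 and 2365 of 27361, in that order, against 1941 of 14080 in the main fit.

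NKG2A rose with the antibodies in CD8 cells. Klrc1, the inhibitory chain, had 631, 666 and 461 CPM in treated deficient CD8 libraries, 159, 168 and 149 CPM in deficient ones and 314, 488 and 319 CPM in floxed ones. Every deficient library lay below every library of both other groups. The blockade difference was a rise of 1.88 ± 0.48 (3.69-fold, adjusted p = 0.0192), which lost its call, with adjusted p up to 0.0742, when any deficient library or treated replicate 1 or 2 was left out. It was 1.20 (adjusted p = 0.0587) with libraries scaled to pan T cell genes. The deletion difference was -1.24 ± 0.47 (adjusted p = 0.0847), and it passed with limma voom (adjusted p = 0.0342), in a fit of the compared groups alone (adjusted p = 0.00395) and with no filter on low counts.

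The proportion of the 2 chains does not depend on how libraries are scaled. For each 100 counts of Klrd1 there were 97.0, 94.7 and 83.2 counts of Klrc1 in treated deficient CD8 libraries, 38.0, 49.7 and 41.2 in deficient ones and 93.8, 98.9 and 101.2 in floxed ones. The deficient libraries stood apart from both other groups, with means of 43.0 ± 6.0 in deficient, against 98.0 ± 3.8 in floxed cells (SD, n = 3 each). The same proportion in CD4 cells averaged 72.5 ± 21.7 in treated deficient, 28.2 ± 5.0 in deficient and 75.6 ± 15.04 in floxed libraries (SD, n = 3 each), again without overlap on either side of the deficient group. Each of these 4 contrasts gave p = 0.1 in a two-sided exact permutation test, the smallest that 3 against 3 allows (0.133 adjusted over the 12 ratio tests made). Counts per 100 counts are not corrected for length, and are compared here between groups only. The floxed CD4 libraries stood at 58.3, 83.1 and 85.4, and replicates 2 and 3 are those high in Cd8a. The part of CD8 cells in these proportions was not tested.

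**Figure D3:**
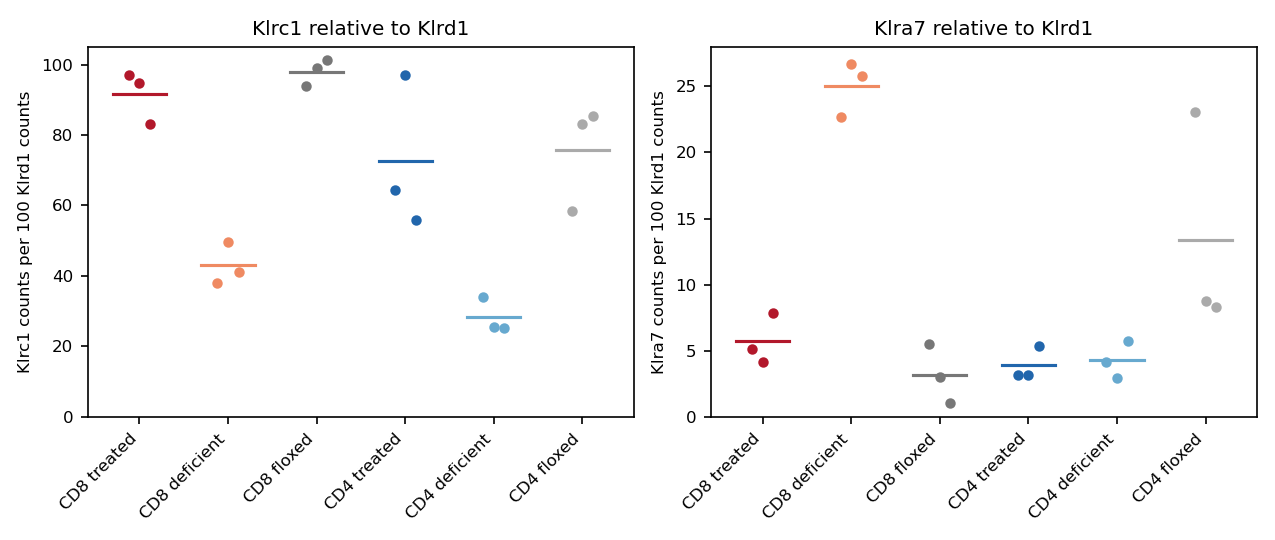
Counts of Klrc1 (left) and Klra7 (right) per 100 counts of Klrd1 are plotted for each library (points) with group means (lines), on axes from 0. Klrc1 relative to Klrd1 is lowest in the deficient group of both cell types, at 38.0 to 49.7 in CD8 and 25.2 to 34.0 in CD4 libraries.

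NKG2C transcripts were scarcer and were not called in either contrast. Klrc2 had 43.0, 31.9 and 40.1 CPM in treated deficient CD8 libraries, 35.7, 29.4 and 31.4 CPM in deficient ones and 43.5, 28.3 and 13 CPM in floxed ones. The groups overlapped in both contrasts, with log2 fold changes of 0.18 ± 0.39 for the deletion (adjusted p = 0.809) and 0.26 ± 0.39 for the blockade (adjusted p = 0.719). Klrc1 and Klrc2 have near-identical stretches. Of the 50-base windows of the Klrc1 transcripts, 38.57% also occur in transcripts of another gene, and 16.26% of those of Klrc2. Among Klr genes each shared the most windows with the other. Reads from these stretches may have been split or lost in counting, so levels of both are uncertain. H2-T23, the gene of their ligand Qa-1, was at 376, 414 and 353 CPM in treated deficient CD8 libraries, against 265, 296 and 250.5 CPM in deficient ones, a rise of 0.49 ± 0.13 (adjusted p = 0.013). It did not pass in the CD8 deletion (-0.03 ± 0.13, adjusted p = 0.921).

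NKG2D also rose with the antibodies. Klrk1 had 796, 838 and 603 CPM in treated deficient CD8 libraries, 332, 383 and 345 CPM in deficient ones and 478, 679 and 472 CPM in floxed ones. The deficient libraries were again below all others. The blockade difference was a rise of 1.07 ± 0.29 (2.11-fold, adjusted p = 0.0229). It lost its call without any 1 deficient library or treated replicate 1 or 2 (adjusted p up to 0.0951), and with pan T cell scaling it was 0.39 (adjusted p = 0.296). The deletion difference of -0.62 ± 0.29 did not pass (adjusted p = 0.154), except in the fit of the compared groups alone (adjusted p = 0.0428) and with no filter on low counts.

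The adaptors of NKG2D were called in other contrasts or directions than NKG2D itself. Hcst (DAP10) had 64.1, 73.3 and 67.4 CPM in deficient CD8 libraries, against 37.8, 49.96 and 47.0 CPM in floxed ones, a rise of 0.60 ± 0.16 (adjusted p = 0.0104), where the Klrk1 difference was -0.62 and not called. Under blockade Hcst was at 62.0, 57.5 and 73.2 CPM, overlapping the deficient group (-0.08 ± 0.16, adjusted p = 0.792). Tyrobp (DAP12) fell by 2.20 ± 0.55 on the log2 scale with the blockade in CD8 cells (adjusted p = 0.0185), as did Fcer1g, the Fc receptor gamma chain (a fall of 1.77 ± 0.46, adjusted p = 0.0197). Macrophages make both of these too, and 11 of 13 macrophage and monocyte genes fell in the same comparison; their part was not tested. Among 15 adaptor and signalling genes, 1 rose and 4 fell with the deletion in CD8 cells (19.3% of all genes were called), including Lcp2 (SLP-76; a fall of 0.54 ± 0.12, adjusted p = 0.00315) and Zap70, a kinase of the T cell receptor (a fall of 0.58 ± 0.16, adjusted p = 0.0139). In the blockade 2 rose and 3 fell (13.8% of all genes were called), with Zap70 at 0.59 ± 0.16 (adjusted p = 0.0172) and Lcp2 at 0.42 ± 0.12 (adjusted p = 0.0205).

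Of 11 tested genes for ligands of these receptors, 3 rose and 1 fell with the deletion in CD8 cells (19.3% of all genes called), and 4 rose and 1 fell with the blockade (13.8%). Ulbp1 (MULT1), an NKG2D ligand, fell by 0.90 ± 0.25 with the deletion (adjusted p = 0.0163) and rose by 0.94 ± 0.26 with the blockade (adjusted p = 0.0172). Clec2d (Clr-b), a ligand of NKR-P1 receptors related to NK1.1, rose by 1.12 ± 0.17 with the deletion (adjusted p = 0.000112). Clec2i (Clr-g), another of that family, rose by 1.63 ± 0.18 with the deletion (adjusted p = 5.56e-06) and fell by 0.94 ± 0.18 with the blockade (adjusted p = 0.00128). H2-D1, a class I gene whose product Ly49 receptors bind, rose by 0.45 ± 0.11 with the blockade (adjusted p = 0.0105).

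Klre1 and its partners did not all move one way. Klre1 had 130, 136 and 101 CPM in treated deficient CD8 libraries, 52.6, 62.2 and 53.5 CPM in deficient ones and 66.6, 109.9 and 70.0 CPM in floxed ones. All deficient libraries were the lowest, and the blockade difference of 1.12 ± 0.36 reached an adjusted p of 0.04995, just under the threshold. It did not pass when any 1 of the 6 libraries was left out (adjusted p 0.0604 to 0.162), with RLE scaling (0.0568) or with pan T cell scaling (0.44, adjusted p = 0.357). The deletion difference was -0.55 ± 0.36 (adjusted p = 0.318).

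Of the Klre1 partners, Klri2 fell and Klri1 rose with the deletion. Klri2, the Klr gene with the miR-155 seed match printed above, had 10.5, 10.1 and 10.8 CPM in deficient CD8 libraries, against 29.9, 35.0 and 18.5 CPM in floxed ones. The groups were separate, and the fall was 1.42 ± 0.42 (adjusted p = 0.0217), a call that pan T cell scaling ended. Klri1 had 4.48, 5.24 and 2.22 CPM in deficient CD8 libraries, against 0.428, 0.882 and 0 CPM in floxed ones, a rise of 3.01 ± 0.86 (adjusted p = 0.0172) at levels near the floor of 3 counts. In CD4 cells the deletion difference was -0.05 ± 0.45 for Klri2 (adjusted p = 0.97) and -1.09 ± 0.76 for Klri1 (adjusted p = 0.417).

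Klrg1 gave the steepest response to the antibodies among the 8 receptors. It had 24.4, 22.3 and 24.4 CPM in treated deficient CD8 libraries, 1.89, 2.43 and 4.76 CPM in deficient ones and 5.42, 7.54 and 5.52 CPM in floxed ones. The 3 groups did not overlap. The blockade rise was 3.02 ± 0.29 (8.12-fold, adjusted p = 2.39e-06), and it was called under every alternative run, at 2.33 to 3.48. The deletion fall was 1.09 ± 0.32 (adjusted p = 0.0199), which was not called with limma voom (adjusted p = 0.164), with the groups fitted alone (0.163), with pan T cell scaling (-0.62, adjusted p = 0.112), or without floxed replicate 2 or deficient replicate 1 or 2 (up to 0.11). Treated deficient cells also exceeded floxed cells, by 1.93 ± 0.26 (3.81-fold, adjusted p = 0.000502). Klrg1 and Klra7 were the only receptors of the 8 called in that comparison, where 5.01% of all genes were.

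Genes that accompany Klrg1 in effector CD8 cells moved in part with it. Of 11 such genes, 3 rose and 4 fell with the deletion in CD8 cells (19.3% of all genes called), and 4 rose and 3 fell with the blockade (13.8%). Gzmb (granzyme B) fell by 1.76 ± 0.25 with the deletion (adjusted p = 0.00018) and rose by 2.63 ± 0.26 with the blockade (adjusted p = 9.24e-06). Cxcr6, a chemokine receptor of tissue-dwelling T cells, fell by 1.67 ± 0.18 (adjusted p = 6.21e-06) and rose by 2.19 ± 0.19 (adjusted p = 7.04e-07) in the same comparisons. S1pr5, an egress receptor of terminal effectors, did not pass in either (-1.08 ± 0.99, adjusted p = 0.5, and 1.93 ± 1.00, adjusted p = 0.219).

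The receptors of natural killer cells rose in deficient CD8 cells. Klra7 (Ly49G) had 33.3, 29.4 and 43.6 CPM in treated deficient CD8 libraries, 95.0, 90.5 and 93.0 CPM in deficient ones and 18.5, 14.9 and 3.21 CPM in floxed ones. The deficient libraries lay within 5 CPM of each other and far above the rest. The deletion rise was 2.90 ± 0.37 (7.47-fold, adjusted p = 4.29e-05), called under every alternative at 2.48 to 3.40. The blockade fall was 1.38 ± 0.35 (adjusted p = 0.0127), which was not called without treated replicate 1 (adjusted p = 0.0624) or 2 (0.0673). Treated deficient cells remained above floxed cells by 1.53 ± 0.36 (adjusted p = 0.0245), a call lost in the fit of these groups alone (adjusted p = 0.129) and without any 1 treated library (up to 0.0887).

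Klrb1c (NK1.1) followed the same pattern at lower levels. It had 8.10, 4.97 and 10.8 CPM in treated deficient CD8 libraries, 18.7, 17.1 and 20.9 CPM in deficient ones and 5.56, 3.04 and 1.60 CPM in floxed ones. The deletion rise was 2.46 ± 0.47 (5.49-fold, adjusted p = 0.00111) and was called under every alternative, at 2.16 to 2.95. The blockade difference of -1.20 ± 0.45 did not pass (adjusted p = 0.0802), although the groups were separate, and it passed with DESeq2 (adjusted p = 0.0391), limma voom (0.0233), the groups fitted alone (0.00294), pan T cell scaling (0.00154) and no filter on low counts (0.0159). Of its transcript windows, 16.98% recur in transcripts of other genes, as do 12.3% of those of Klra7. Among Klr genes, Klrb1a shared the most windows with Klrb1c, and Klra13-ps with Klra7.

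Most of the Ly49 family was higher in deficient CD8 cells. Of 10 tested Klra genes, Klra7 included, 7 were called higher and none lower, where 9.65% of all genes were called higher, and all 10 had positive log2 fold changes (median 2.56). Klra6 (Ly49F) had 39.2, 38.7 and 46.5 CPM in deficient CD8 libraries, against 8.70, 7.15 and 4.63 CPM in floxed ones, a rise of 2.59 ± 0.44 (adjusted p = 0.000396). Klra1 (Ly49A) had 30.6, 25.4 and 30.6 CPM in deficient, against 4.42, 4.51 and 6.05 CPM in floxed libraries, a rise of 2.54 ± 0.37 (adjusted p = 9.44e-05). Both were separate between the groups. Klra9, Klra13-ps, Klra5 and Klra2 rose by 3.10 ± 0.61, 2.30 ± 0.51, 3.57 ± 1.21 and 1.52 ± 0.49, in that order. Klra5 had 1.41, 1.66 and 3.65 CPM in deficient CD8 libraries, against 0.285, 0.196 and 0 CPM in floxed ones. Its floxed counts were under the floor of 3 counts. Klra2 had 5.07, 12.8 and 18.2 CPM in deficient CD8 libraries, overlapping 3.56, 3.82 and 5.16 CPM in floxed ones. It was far higher in floxed CD4 libraries, at 115, 82.9 and 135 CPM, where the macrophage sum was also highest. The part of macrophages in the Klra2 values was not tested. The Klra5 and Klra2 calls were lost with limma voom, and that of Klra5 with a replicate block. Klra3 (0.79 ± 0.41, adjusted p = 0.199), Klra4 and Klra17 were not called. Among the tested members, 31.48% of the windows of Klra9 and 20.71% of those of Klra3 recur in transcripts of other genes. The share was 2.62% for Klra6, 2.98% for Klra1 and 0% for Klra2 and Klra17. Values of members that share windows are uncertain.

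Outside the Ly49 genes, Klrb1f rose by 1.89 ± 0.41 in deficient CD8 cells (adjusted p = 0.00278), while Klrb1b (0.58 ± 0.42, adjusted p = 0.373) and Klrb1a were not called. With the blockade, Klra1 (a fall of 1.24 ± 0.35, adjusted p = 0.0225), Klra6 (a fall of 1.56 ± 0.42, adjusted p = 0.0167) and Klra7 were called lower among the 10 Klra genes and none higher, where 5.53% of all genes were called lower. Klrc3 and Klrg2 were tested and not called in the deletion or blockade contrast of either cell type. Klra8, Klra10, Klra14-ps, Klrb1 and Klrb1-ps1 did not pass the filter, with at most 3.03 CPM in any library.

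**Figure D4:**
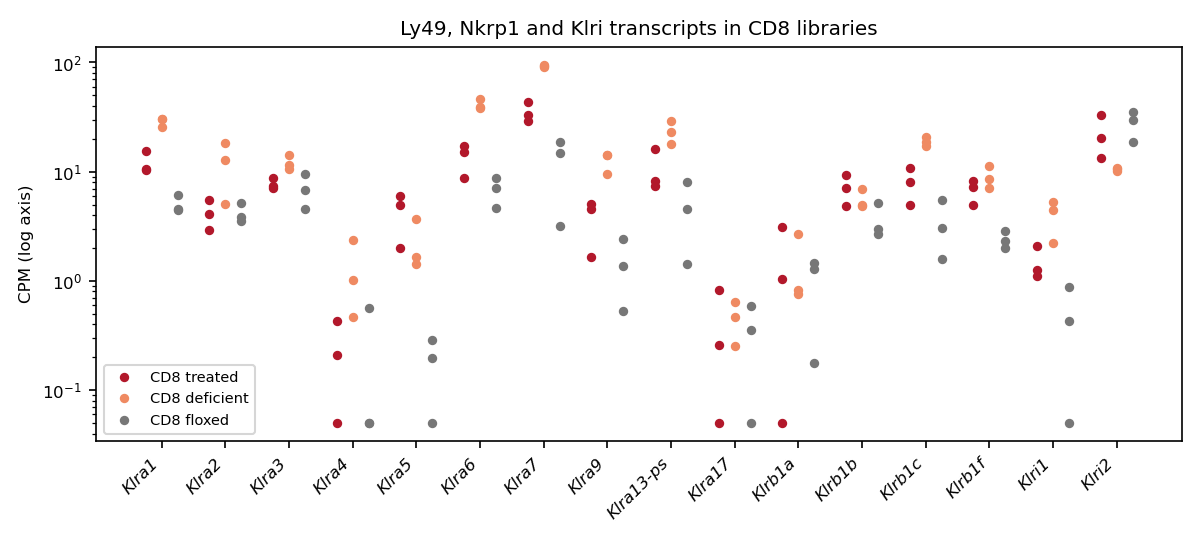
CPM (TMM-scaled, log axis) of 16 tested Ly49 (Klra), Nkrp1 (Klrb1) and Klri genes in the 9 CD8 libraries, with a point per library, treated deficient left, deficient in the middle and floxed right; libraries with no count are drawn at 0.05. Klra7 and Klra6 are the highest Ly49 transcripts in deficient cells, and Klri2 is lower in all 3 deficient libraries than in any floxed one.

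Of 13 other tested markers of natural killer cells, 1 rose and 4 fell in deficient CD8 cells, where 19.3% of all genes were called. Ncr1 (NKp46), the defining marker, was at 1.38, 0.828 and 0.524 CPM in treated deficient CD8 libraries, 1.18, 0.766 and 1.43 CPM in deficient ones and 0, 0.392 and 0 CPM in floxed ones, all close to the floor of 3 counts (0.258 to 1.24 CPM). Its deletion difference, 2.67 ± 1.12, did not pass (adjusted p = 0.101). The 14 marker genes outside the Klr families, many of which CD8 T cells also make, summed to 2851 to 3132 CPM in treated deficient, 1786 to 1947 in deficient and 2306 to 2808 in floxed CD8 libraries. Among the 4 that fell with the deletion were Nkg7, a protein of cytotoxic granules (a fall of 1.14 ± 0.11, adjusted p = 1.68e-06), and Cd244a (2B4; a fall of 1.58 ± 0.21, adjusted p = 3.95e-05). Txk, a Tec family kinase, rose by 0.76 ± 0.19 (adjusted p = 0.00802). With the blockade 5 rose and 2 fell (13.8% of all genes called). Of 5 tested markers of gamma delta and natural killer T cells, 3 were called higher with the deletion in CD8 cells (9.65% of all genes), among them Trdc, which rose by 1.84 ± 0.47 (adjusted p = 0.00931). The other 2 were not called, with Tcrg-C2 at a mean of 25.6 CPM in deficient, against 29.95 CPM in floxed libraries, and Zbtb16 at 0.220, against 0.555 CPM. With the blockade the 5 had a median log2 fold change of -0.55, against -0.03 over all genes, and all 5 missed the threshold. The whole list of 7 summed to 62.6 to 74.1 CPM in treated deficient, 61.2 to 67.8 in deficient and 31.1 to 49.7 CPM in floxed CD8 libraries, and its part in the Ly49 values was not tested.

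In CD4 cells 3 of the 8 receptors were called with the deletion, all lower, where 11.7% of all genes were called. Klra7 had 2.34, 2.45 and 3.68 CPM in deficient CD4 libraries, against 11.4, 9.88 and 7.22 CPM in floxed ones, a fall of 1.83 ± 0.45 (adjusted p = 0.0131). Klrc1 had 19.4, 21.2 and 16.1 CPM in deficient, against 28.9, 94.0 and 74.4 CPM in floxed libraries, a fall of 1.78 ± 0.52 (adjusted p = 0.041). Those groups were separate for both. Klre1 had 5.45, 5.71 and 4.52 CPM in deficient, against 5.22, 20.7 and 18.9 CPM in floxed libraries, overlapping, with a fall of 1.48 ± 0.45 (adjusted p = 0.0435).

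The floxed libraries high in Klrc1 and Klre1, replicates 2 and 3, are those with Cd8a over 50 CPM. Without these 2 libraries the log2 differences were -0.61 for Klrc1, 0.02 for Klre1 and -2.09 for Klra7. That leaves 1 floxed CD4 library, assumed to vary like the libraries of the other groups, so the lack of calls there (adjusted p = 0.737, 1 and 0.104 in the same order) says little. The Klra7 call was also lost with limma voom and without deficient replicate 1 or 2, and those of Klrc1 and Klre1 with limma voom and without any 1 library other than floxed replicate 1. The Klre1 call was lost in the fit of the compared groups alone as well (adjusted p = 0.0628). Klra2 and Klra3 fell too, by 1.95 ± 0.42 (adjusted p = 0.00785) and 2.18 ± 0.51 (adjusted p = 0.00792). Klra13-ps had no count in the 3 deficient CD4 libraries, against 2.02, 2.61 and 2.99 CPM in floxed ones. Klrd1 (-0.29 ± 0.34), Klrk1 (-0.13 ± 0.29), Klrc2 (-0.32 ± 0.47) and Klrb1c (0.71 ± 0.45) were not called, with adjusted p of 0.369 to 0.842. In the same comparison 11 of 13 macrophage genes fell; their part was not tested.

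Klrg1 was not called in CD4 cells in either contrast. It had 200.2, 127 and 189 CPM in treated deficient CD4 libraries, 198, 192 and 220 CPM in deficient ones and 177, 137 and 97.3 CPM in floxed ones. Every deficient library was above every floxed one, at 0.56 ± 0.21 (adjusted p = 0.102). That difference passed with limma voom (adjusted p = 0.0297), without floxed replicate 1 (0.0376) and with no filter on low counts (0.0112). The blockade difference was -0.23 ± 0.21 (adjusted p = 0.719). None of the 8 receptors was called with the blockade in CD4 cells by edgeR's quasi-likelihood test, where 0.142% of all genes were. At an unadjusted p under 0.05 there were 3. DESeq2 called 1, limma voom 0 and the fit with no filter on low counts 2. Klrc1, with 47.5, 110 and 21.9 CPM in treated deficient, against 19.4, 21.2 and 16.1 CPM in deficient CD4 libraries, was separate between the groups (1.59 ± 0.52, adjusted p = 0.273). Klrc2 had 14.4, 27.7 and 7.45 CPM in treated deficient, against 5.06, 7.75 and 3.68 CPM in deficient CD4 libraries (1.47 ± 0.45, adjusted p = 0.213), which DESeq2 called (adjusted p = 0.0348). Klrb1c, at -1.19 ± 0.46, was separate and not called (adjusted p = 0.329). Treated deficient CD4 cells remained below floxed ones in Klra7, a fall of 1.93 ± 0.44 (adjusted p = 0.0078), the 1 receptor called there among 12.2% of all genes.

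The difference between CD8 and CD4 cells in these responses was tested directly. The deletion effect differed for Klra7, by 4.73 ± 0.58 (CD8 minus CD4, adjusted p = 7.89e-05), and for Klrg1, by -1.65 ± 0.38 (adjusted p = 0.00737), where 11.6% of all genes differed. For Klrg1 this was lost with limma voom (adjusted p = 0.0704). The difference for Klrb1c, 1.75 ± 0.65, did not pass (adjusted p = 0.0887). It passed with no filter on low counts (adjusted p = 0.0153) and with pan T cell scaling (0.00687). With RLE scaling, DESeq2, limma voom, the groups fitted alone or a replicate block it did not. Leaving out 1 library gave adjusted p of 0.0158 to 0.325. The blockade effect differed for Klrg1 alone among the 8, by 3.26 ± 0.36 (adjusted p = 0.00015), where 0.803% of all genes differed. Klrk1 (1.18 ± 0.41, adjusted p = 0.23) and Klra7 (-1.27 ± 0.61, adjusted p = 0.416) did not pass. Klrk1 passed with no filter on low counts (adjusted p = 4.53e-06), and Klra7 in the fit of the compared groups alone (0.035).

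CD8 cells held more of the effector receptors than CD4 cells in every condition, apart from Klrg1. In treated deficient cells 7 of the 8 genes differed (20.4% of all genes), in deficient cells 7 (15.6%) and in floxed cells 6 (39.1%). Klrg1 was lower in CD8 cells, at -2.85 ± 0.24 in treated deficient (adjusted p = 1.98e-07), -6.11 ± 0.29 in deficient (69.0-fold, adjusted p = 6.85e-11) and -4.45 ± 0.26 in floxed mice (adjusted p = 5.73e-10). Klre1 was higher in CD8 cells by 4.07 ± 0.43, 3.39 ± 0.43 and 2.47 ± 0.39 in the same order of groups, Klrc1 by 3.34 ± 0.51, 3.05 ± 0.53 and 2.51 ± 0.49, and Klrd1 by 3.10 ± 0.36, 2.45 ± 0.35 and 2.19 ± 0.35. The chains that pair with each other, and Klre1 beside them, were thus higher in CD8 cells of all 3 conditions. Klrk1 differed by 2.45 ± 0.30, 1.27 ± 0.29 and 1.75 ± 0.30, and Klrc2 by 1.29 ± 0.41, 2.50 ± 0.44 and 2.00 ± 0.44. All of these were called, and only that of Klrc2 in treated cells was lost under an alternative (adjusted p up to 0.131 without CD4 replicate 3). Klra7 was 14.2-fold higher in CD8 cells of treated deficient mice and 34.2-fold higher in those of deficient mice, and was not called in floxed mice (0.37 ± 0.38, adjusted p = 0.475), with a sign that changed without floxed CD8 replicate 1. Klrb1c was not called in any of the 3 (0.54 ± 0.46, 0.55 ± 0.44 and -1.21 ± 0.48, the last with an adjusted p of 0.0507). That last difference passed with DESeq2 (adjusted p = 0.0337), pan T cell scaling (0.00687), the stricter filter (0.04995) and no filter (0.0169). It did not with RLE scaling, limma voom, the groups fitted alone or a replicate block. Leaving out 1 library gave adjusted p of 0.00525 to 0.447.

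Cd8a and Cd8b1, which encode the 2 chains of the CD8 co-receptor, were also counted in the CD4 libraries, at shares that differed between the 2 genes. In deficient mice the CD4 libraries averaged 0.0332% of the Cd8a level and 2.78% of the Cd8b1 level of the CD8 libraries, with 41.5% of their Klrk1, 18.3% of their Klrd1 and 11.9% of their Klrc1. In treated deficient mice these values were 0.777% for Cd8a, 2.97% for Cd8b1 and 18.4%, 11.9% and 10.2% for the 3 receptors. In floxed mice Cd8a stood at 7.82% and Cd8b1 at 10.0%, with Klrk1 at 29.7%, Klrd1 at 21.9% and Klrc1 at 17.6%. The part of CD8 cells in the receptor values of the CD4 libraries was not tested.

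Transcription factors known to govern effector and memory fates also moved in CD8 cells. Of 14, 1 rose and 7 fell with the deletion (19.3% of all genes called), and 4 rose and 2 fell with the blockade (13.8%). Tbx21 (T-bet) had 169, 161 and 155 CPM in treated deficient, 84.7, 105.7 and 83.8 CPM in deficient and 179.5, 165.5 and 124 CPM in floxed CD8 libraries. It fell by 0.78 ± 0.21 with the deletion (adjusted p = 0.0152) and rose by 0.82 ± 0.21 with the blockade (adjusted p = 0.0149). Id2 fell by 1.26 ± 0.16 (adjusted p = 2.19e-05) and rose by 1.84 ± 0.16 (adjusted p = 7.04e-07), and Prdm1 (Blimp-1) fell by 2.05 ± 0.28 (adjusted p = 8.3e-05) and rose by 1.94 ± 0.28 (adjusted p = 0.000204). Eomes, whose level across libraries was closest to that of Klrd1, was not called in either (0.26 ± 0.48, adjusted p = 0.776, and 0.22 ± 0.48, adjusted p = 0.819), nor was Zeb2. Tcf7 (TCF-1), of naive and stem-like cells, fell by 1.97 ± 0.49 with the blockade (adjusted p = 0.0171), and its deletion difference of 1.44 ± 0.48 narrowly missed (adjusted p = 0.0501).

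Across the 18 libraries the receptors fell into sets by their levels. Pearson correlations of log2(CPM + 1) among Klrk1, Klrc1, Klrd1 and Klre1 were 0.942 to 0.976. Klrg1 ran against these 4, at -0.833 to -0.737, and the highest value of Klrb1c with another member was 0.443, with Klra7. Of all other tested genes with a mean of at least 5 CPM, those most like Klrd1 were Eomes (0.974), Crtam (0.968) and Ugcg (0.960). Eomes encodes a T-box factor of memory CD8 and natural killer cells. Klrc1 was closest to Ifng (0.968), Styk1 (0.964) and Serpine2 (0.960), and Klre1 to Cd8b1 (0.979), Atp8b4 (0.973) and Cd160 (0.973). Ifng encodes interferon gamma, and Cd8b1 the beta chain of CD8. Klrk1 was closest to Rcn1 (0.971), Atp8b4 (0.958) and Jaml (0.952), and Klrc2 to B4galnt1 (0.920), Ctsw (0.914) and Serpinb9b (0.903). Klra7 was closest to Cd7 (0.905), Ifitm10 (0.904) and Samd3 (0.902), and Klrb1c to Pdcd4 (0.907) and Mturn (0.867). Pdcd4 encodes an inhibitor of translation. Klrg1 was closest to M6pr (0.978), which lies near it on the plus strand at chr6:122308720-122317680, Glrx (0.977) and Ctla4 (0.973). These values describe 18 libraries that share 2 cell types and 3 conditions, so differences between CD8 and CD4 cells enter every one of them.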

How the data were processed

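Raw read counts per gene, not normalized, were deposited by the authors as 1 table per library, made, per the file headers, by featureCounts 1.5.1 (strand option 2, Ensembl release 87); the submitters' processing notes name GRCm38, STAR and DESeq2 without versions. Gene symbols came from GENCODE M21. All 18 libraries (3.20 to 11.65 M counts) entered 1 fit in edgeR 4.0.16 (TMM, filterByExpr, robust quasi-likelihood), which tested 14080 genes with 12 residual degrees of freedom. P-values were adjusted by Benjamini-Hochberg over all of them, and measure only the spread between pooled libraries, which may be technical. CPM values are TMM-scaled. On simulated counts for the CD8 deletion (13648 genes) the fit recovered 68% of 2-fold and 86% of 4-fold changes with 4 false calls. Changes were planted only in genes above a minimum expected count, so these rates do not cover genes near the floor. Alternatives were RLE scaling, other filters, DESeq2 1.42.0, limma 3.58.1 (voom), separate fits, a replicate block and leaving out libraries, with pan T cell scaling and the omission of 2 floxed CD4 libraries added after the data were seen. Same-numbered libraries deviated together only between CD8 and CD4 cells of deficient (correlations of 0.121 to 0.213) and treated deficient mice (0.107 to 0.324), where the block changed no call. No libraries were duplicates. The receptors, gene lists and rules for named genes were chosen with earlier results of these data known. Named besides the receptors are other Klr genes, listed adaptors, ligands, markers and factors with the smallest adjusted p, and, per receptor, the 3 genes most alike, of which 1 is not reported here.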

Additional observations from a re-analysis of the deposited data

Results flagged for a closer look

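Klrg1 was picked out because its response differed between the sorted cell types by the interaction term of the edgeR fit. The deletion effect differed by -1.65 ± 0.38 (CD8 minus CD4, log2, adjusted p = 0.00737), with all 3 deficient libraries below all floxed ones in CD8 cells and above them in CD4 cells. It ranged from -2.09 to -0.99 over the alternatives, and its call was lost with limma voom (adjusted p = 0.0704). Without the 2 floxed CD4 libraries high in Cd8a, which leaves 1 and takes its spread from other groups, it was -1.28 (adjusted p = 0.0558). The blockade effect on Klrg1 differed by 3.26 ± 0.36 (adjusted p = 0.00015), with a range of 2.88 to 3.70 over the alternatives.

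Klra7 was picked out in the same way. Its deletion effect differed by 4.73 ± 0.58 (adjusted p = 7.89e-05), with all 3 deficient libraries above all floxed ones in CD8 cells and below them in CD4 cells, and a range of 4.35 to 5.39 over the alternatives.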

How the results depend on the processing

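The report's 63 gene results and 11 counts of called receptors were recomputed under each alternative. Over all genes, the fit with no filter on low counts called 541 of 27361 in the CD4 blockade, against 20 of 14080 in the main fit. With no filter on low counts 6 receptors were called in the CD8 deletion, 2 in the CD4 blockade, 7 in treated deficient against floxed CD8 cells, 3 in the CD4 counterpart, and 4 and 2 in the differences of the deletion and blockade effects. DESeq2 called 1 in the CD4 blockade and 2 in treated deficient against floxed CD4 cells, and limma voom 1 in the CD4 deletion and 1 in the difference of deletion effects. Fits of the compared groups alone called 1 in treated deficient against floxed CD8 cells and 2 in the difference of blockade effects. Pan T cell scaling, which moved the median of all genes by 0.42 in the CD8 deletion and -0.72 in the CD8 blockade, called 3 in the CD8 blockade and 3 in treated deficient against floxed CD4 cells. Without the 2 floxed CD4 libraries high in Cd8a, 0 were called in the CD4 deletion and 0 in treated deficient against floxed CD4 cells, which says little, since 1 floxed CD4 library is left and its spread is taken from the other groups. The causes were not tested. Leaving out 1 library at a time gave 1 to 4 calls in the CD8 blockade, 0 to 4 in the CD4 deletion, 0 to 1 in the CD4 blockade, and 1 to 2 in both comparisons of treated deficient with floxed cells. Signs turned for Klrd1 in the CD8 deletion (0.023 with the replicate block, 0.424 with pan T cell scaling, -0.145 to 0.181 without 1 library), for Klrc2 in the CD8 deletion (-0.147 to 0.608 without 1 library) and blockade (-0.423 with pan T cell scaling), for Klra7 between floxed CD8 and CD4 cells (-0.057 with pan T cell scaling, -0.013 to 0.781 without 1 library), and in the CD4 deletion without the Cd8a-high libraries for Klrk1 (0.522), Klrd1 (0.446), Klre1 (0.017) and Klrb1c (-0.138). Of these, Klre1 alone was called in the full data. The replicate block changed no call among the 63 results, and that of Klra5, outside them, was lost. The 3 libraries a group, and counts near the floor for Ncr1, Klri1 and Klra5, limit what could be detected.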
